A study of Homo sapiens with 6 samples.

Results

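The genes described here encode the protein folding and degradation machinery of the endoplasmic reticulum (ER). They are 40 genes chosen by name, out of 45019 rows in each file, and cover the stress sensors of this compartment, its chaperones, its disulfide enzymes, the calnexin cycle, the degradation machinery and protein import and export. The cells were MDA-MB-468, an established line of triple-negative breast cancer cells of basal type with an amplified EGFR gene, and their total RNA was sequenced. Cells were left untreated or received 100 µM DETA/NO, a slow donor of nitric oxide, and both groups were collected on day 10. The labels give 1 protocol for all samples, in which cells adhered for 4 h before the compound was added and the dishes of a replicate were pooled and replated every 48 h; how the untreated cells were handled is not described separately. The series addresses which transcripts differ after long exposure to nitric oxide, which its submitters describe as inhibiting the RNA demethylase FTO. Each group had 3 samples, but DETA/NO replicates 1 and 2 held the same value in every row under the same library name, and count as 1 library, called the shared library here (n = 3 untreated and n = 2 DETA/NO).

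Secretory and membrane proteins enter the ER through the SEC61 channel, fold with the help of the Hsp70 chaperone BiP and of disulfide isomerases, and leave in COPII vesicles. Proteins that fail to fold are drawn back to the cytosol and degraded. Unfolded protein activates 3 sensors in the ER membrane. IRE1 (gene ERN1) splices the mRNA of XBP1 into the form that encodes an active transcription factor, ATF6 is cut to release a transcription factor, and PERK (gene EIF2AK3) phosphorylates eIF2 alpha, which favours translation of ATF4. XBP1 and ATF6 raise overlapping sets of folding and degradation genes, while ATF4 raises genes of amino acid supply, redox balance and feedback on translation. ATF4 is also reached by other eIF2 alpha kinases.

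The files hold 1 normalized read count per gene, and 28897422 to 34637343 reads per library were recovered from them. The epithelial markers EPCAM, KRT8, KRT18, KRT19, KRT5, KRT17, EGFR and CDH1 summed to at least 383515 normalized reads in every library. Markers of immune cells summed to 12.8 to 17.6 in untreated and 36.1 to 37.7 in DETA/NO libraries, mostly PTPRC (CD45), which was called higher (log2 fold change 1.33, adjusted p = 0.000984). Those of fibroblasts summed to 578 to 635 in untreated and 840 to 850 in DETA/NO libraries (nearly all COL1A1), and those of endothelium to 325 to 363 and 499 to 558. CD68 was listed at 0 in every library, and 81.7% of its exon bases lie under those of other genes on the same strand. The part of these low marker levels in the results was not tested. Of 5 plasma cell markers, genes of a cell type with a large ER, JCHAIN was listed at 0, and SDC1, which epithelial cells also express, held nearly all of the sum of 14114 to 16066 in untreated and 10117 to 11966 in DETA/NO libraries. In bulk RNA, fewer cells of a kind and less RNA per cell cannot be told apart. Whether samples were separate cultures is not stated, so p-values measure the spread between these libraries.

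In the cells given DETA/NO, ER genes were more often lower than higher, and most differences were small. SEC24D, a COPII coat subunit, and the transcription factors CREB3L2 and XBP1 fell the furthest: SEC24D fell by 47.0% of its untreated mean, CREB3L2 fell by 42.2% and XBP1 fell by 35.1%. Import and export genes fell in 3 of 3 and disulfide genes in 5 of 7, beside 21.7% lower and 21.7% higher among all genes tested. Of 11 chaperone genes, 2 fell (18.2%, near that share), 1 rose and 8 did not pass the test. None of the 3 genes of the calnexin cycle passed. In a list of genes downstream of PERK and ATF4, compiled with earlier results of these data known, 9 of 13 tested were higher and 1 lower.

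Of the 40 genes, 38 had a mean of at least 10 normalized reads and were tested. TXNDC5, a disulfide isomerase, was listed at 0 in every library, and 60.6% of its exon bases lie under exons of the readthrough gene BLOC1S5-TXNDC5 on the same strand. DERL3, a derlin with 77.0% of its exon bases under those of other genes, had a mean under 10 normalized reads, with 6.65 and 3.80 in the DETA/NO libraries. With limma and a Benjamini-Hochberg adjusted p under 0.05 over all tested genes, 16 of the 38 were lower and 2 higher in DETA/NO. Over all 16409 genes tested, 21.7% were lower and 21.7% higher, against 42.1% and 5.26% of these 38. The members were chosen with earlier results of these data known, so these shares only describe them. The median log2 fold change of the 38, on the log2(value + 1) scale, was -0.09, beside -0.00016 for all genes tested. Both DETA/NO libraries lay below every untreated library in 21 of the 38 genes, beside 30.8% of all genes, and above every untreated library in 4, beside 30.4%. Called lower by limma and in all 17 alternative analyses were XBP1, CREB3L2, DNAJC3, CRELD2, P4HB, PDIA4, EDEM3, SEC61A1 and SEC24D, which are 9 genes, beside 11.2% of all genes. Limma without its trend and robust options called 9 lower and 0 higher.

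**Figure D1:**
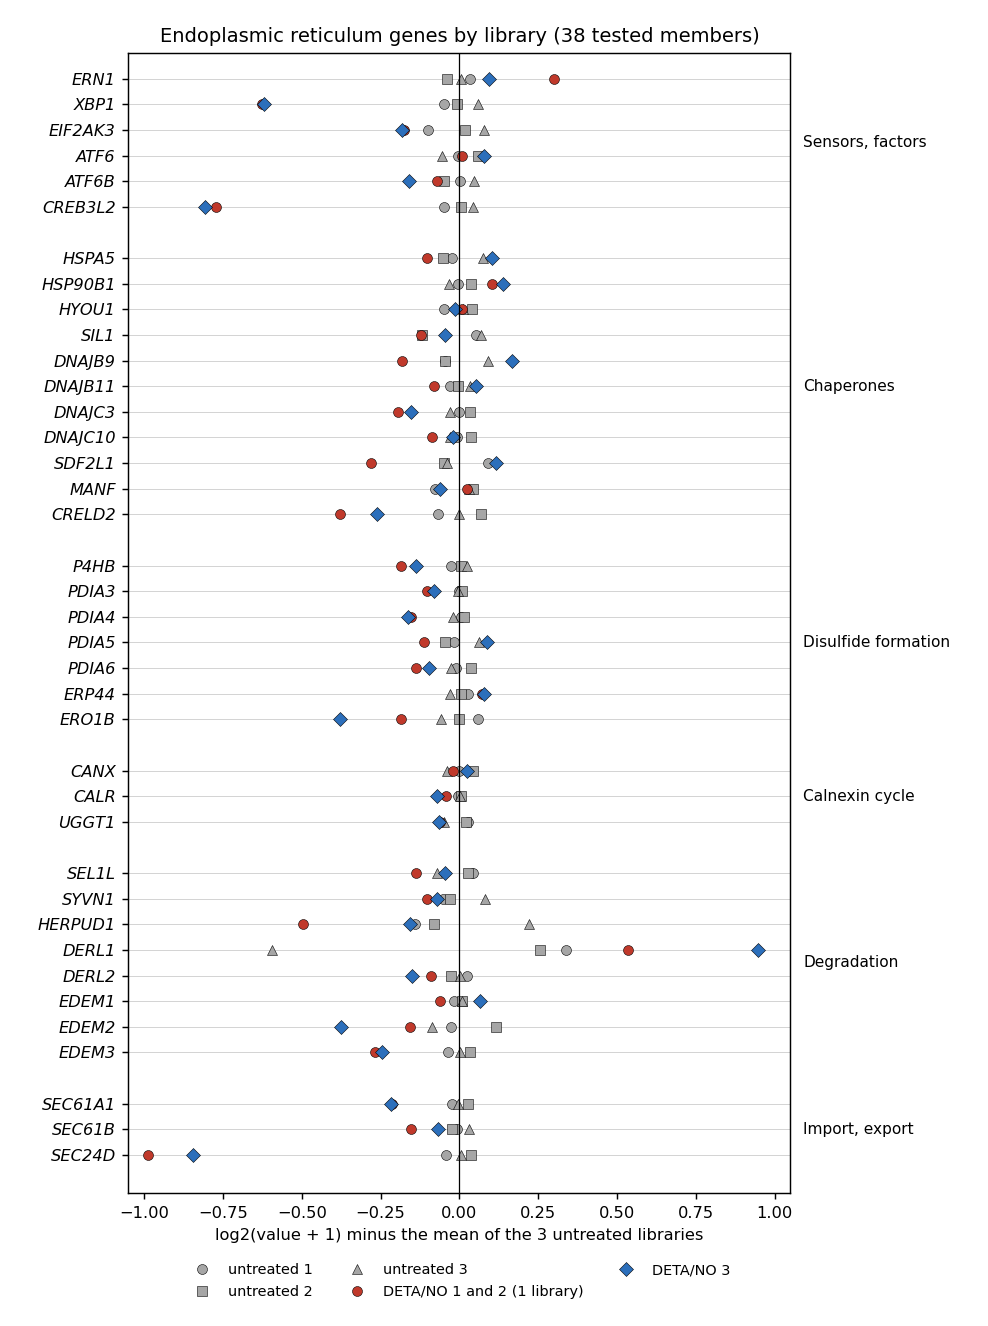
Each row is 1 of the 38 tested genes, by role, and the x axis gives log2(value + 1) in each library minus the mean of the 3 untreated libraries (grey). In SEC24D, CREB3L2 and XBP1 the red and blue DETA/NO points lie below -0.6, clear of the grey points, while in HSPA5, DNAJB9 and SDF2L1 they lie on both sides of 0.

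The ER stress element, ERSE, is the promoter sequence through which ATF6 acts together with NF-Y, and it is shown here because genes that carry it did not move alike. It reads CCAAT, then 9 bases of any kind, then CCACG, and a shorter form, ERSE-II, reads ATTGG, then 1 base of any kind, then CCACG. In the 250 bases before the annotated starts, searched on both strands in RefSeq promoters (GRCh38.p14), ERSE was found in 8 of the 36 listed genes that have an entry, or 22.2%, beside 25 of 27305 genes with an entry, or 0.0916%. ERSE-II was found in 3 of the 36, HYOU1, SDF2L1 and HERPUD1, beside 0.0659% of all genes. Because the members include known targets of ATF6, shares above those of all genes follow from the choice of members and are no result of these data. The stretches below run 5′ to 3′ in the direction of the gene, with the fixed letters of the element in capitals, or of its reverse complement where it lies on the other strand.
XBP1: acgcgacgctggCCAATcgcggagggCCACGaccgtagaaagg
CRELD2: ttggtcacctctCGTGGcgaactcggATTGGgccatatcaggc
PDIA6: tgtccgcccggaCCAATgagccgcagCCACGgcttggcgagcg
ERO1B: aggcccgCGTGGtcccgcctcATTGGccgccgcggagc
HSP90B1: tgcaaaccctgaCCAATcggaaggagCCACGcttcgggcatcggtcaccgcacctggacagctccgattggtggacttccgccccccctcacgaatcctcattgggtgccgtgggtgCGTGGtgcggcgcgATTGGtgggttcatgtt
HSPA5: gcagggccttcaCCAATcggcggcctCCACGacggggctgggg
CALR: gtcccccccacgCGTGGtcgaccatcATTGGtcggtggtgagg
HERPUD1: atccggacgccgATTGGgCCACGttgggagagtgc
SDF2L1: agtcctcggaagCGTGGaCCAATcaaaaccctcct
HYOU1: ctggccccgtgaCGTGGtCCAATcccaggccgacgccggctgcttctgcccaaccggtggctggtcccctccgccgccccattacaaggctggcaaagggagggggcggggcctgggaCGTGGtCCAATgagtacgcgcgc
The XBP1 stretch is at chr22:28800591-28800633 on the minus strand, that of HSPA5 at chr9:125241379-125241421 on the minus strand, and that of HSP90B1, with 2 matches, at chr12:103930204-103930351 on the plus strand. CRELD2 is at chr22:49918542-49918584 on the plus strand and PDIA6 at chr2:10812841-10812883 on the minus strand. ERO1B is at chr1:236282171-236282208 on the minus strand and CALR at chr19:12938372-12938414 on the plus strand. The ERSE-II stretches are at chr16:56932013-56932047 on the plus strand for HERPUD1, chr22:21642102-21642136 on the plus strand for SDF2L1, and chr11:119057262-119057402 on the minus strand for HYOU1, with 2 matches. Of the 8 genes with ERSE, including CANX, 4 were lower (XBP1, CRELD2, PDIA6 and ERO1B), 1 was higher (HSP90B1) and 3 did not pass (HSPA5, CANX and CALR). All 3 with ERSE-II did not pass. Among the 38 tested members 42.1% were lower and 5.26% higher, and among all genes tested 21.7% each way. The count of ERSE genes called lower is thus near the share of the members, and whether the element goes with the calls was not tested. The core of the unfolded protein response element, TGACGTGG, occurred before HYOU1, where it overlaps an ERSE-II match, DNAJC10 and TXNDC5, or 8.33% of the 36 beside 0.78% of all genes. The core of the composite site bound by ATF4, TTGCATCA, occurred before HERPUD1 alone among the 36, beside 0.967% of all genes. These matches describe the letters of the window and were not shown to be bound in these cells.

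Among the sensors and their transcription factors, XBP1 fell, CREB3L2 fell and EIF2AK3 fell, ERN1 rose, and ATF6 and ATF6B did not pass the test. XBP1, on chromosome 22 at 28794555 to 28800597 (GRCh38), had 8836, 9085 and 9513 normalized reads untreated, against 5921 in the shared DETA/NO library and 5941 in DETA/NO replicate 3. The DETA/NO libraries were nearly equal and well below the lowest untreated library (log2 fold change -0.62 ± 0.033 SE, adjusted p = 2.13e-16). The gene-level count does not separate the spliced from the unspliced XBP1 mRNA. CREB3L2, an ER-anchored factor of the OASIS family that is released by the same proteases as ATF6, lies on chromosome 7 at 137874979 to 138002067. It had 3310, 3436 and 3525 normalized reads untreated and 2003 and 1957 with DETA/NO, again without overlap (log2 fold change -0.79 ± 0.039 SE, adjusted p = 4.4e-17).

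ERN1, which encodes IRE1, had 687, 654 and 675 normalized reads untreated and 828 and 718 in the shared library and replicate 3. Both DETA/NO values were higher, one clearly and the other by little (log2 fold change 0.20 ± 0.066 SE, adjusted p = 0.0152). Without the shared library the log2 fold change of ERN1 was 0.095 (adjusted p = 0.393), without untreated replicate 2 the adjusted p was 0.0632, and over all alternatives it lay between 0.00221 and 0.393. EIF2AK3, which encodes PERK, had 824, 894 and 932 untreated and 780 and 778 with DETA/NO. The groups did not overlap, and the lowest untreated value lay close to the DETA/NO values (log2 fold change -0.18, adjusted p = 0.0169). Its adjusted p was 0.0602 and 0.0661 without untreated replicates 2 and 3, 0.0597 without the shared library and 0.0641 without DETA/NO replicate 3, within a range of 0.00541 to 0.108 over the alternatives. ATF6 had 3676, 3845 and 3553 untreated and 3706 and 3896 with DETA/NO, so its groups overlapped (adjusted p = 0.39). ATF6B, its paralog, had 1394, 1345 and 1437 against 1324 and 1246, or -0.12 on the log2 scale with an adjusted p of 0.0587. Without the shared library, ATF6B passed, with an adjusted p of 0.0405 in a range of 0.0399 to 0.392.

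**Figure D2:**
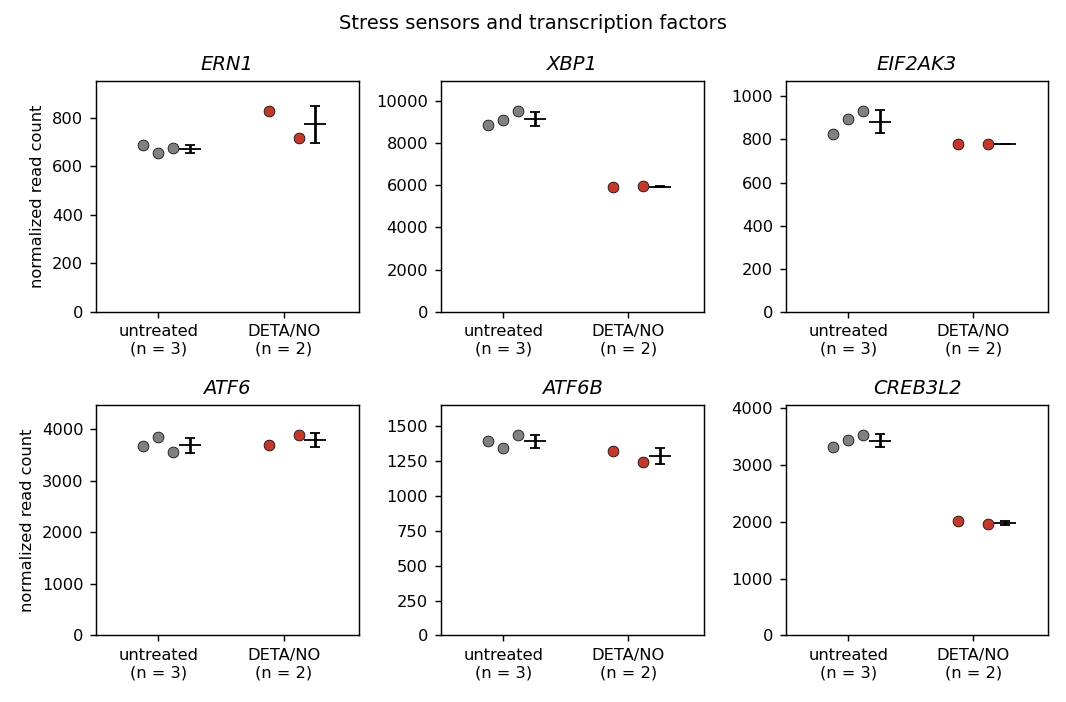
Normalized read counts of the 6 sensors and transcription factors per library (points), with mean and SD beside them, for untreated (grey, n = 3) and DETA/NO (red, n = 2), where replicates 1 and 2 are 1 library. XBP1 drops from between 8836 and 9513 to 5921 and 5941 and CREB3L2 from between 3310 and 3525 to 1957 and 2003, while the groups of ATF6 overlap.

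The chaperones of the Hsp70 and Hsp90 systems were mostly near their untreated levels: 2 of 11 fell and 1 rose. HSPA5, which encodes BiP, the ER Hsp70 that also holds the sensors inactive, had 19659, 19267 and 21002 normalized reads untreated, and 18584 in the shared library and 21438 in replicate 3. The DETA/NO values lay on both sides of the untreated ones, and their means differed by 0.176% (adjusted p = 0.999). HSPA5 passed in opposite directions without either DETA/NO library, at 0.10 on the log2 scale (adjusted p = 0.0393) without the shared library and -0.10 (adjusted p = 0.0385) without replicate 3, in a range of 0.0385 to 0.999. HSP90B1, which encodes the ER Hsp90 GRP94, had 9518, 9805 and 9346 untreated and 10260 and 10511 with DETA/NO. It rose by 8.67% of the untreated mean, without overlap (log2 fold change 0.12 ± 0.031 SE, adjusted p = 0.00184), and did not pass in limma without the trend and robust options (0.0989, in a range of 0.000388 to 0.0989). DNAJC3, a J-domain cochaperone also known as the PERK inhibitor p58IPK, fell from 5179, 5313 and 5078 to 4538 and 4669, or -0.17 on the log2 scale (adjusted p = 9.29e-05). CRELD2, a secreted ER stress protein, fell from 909, 1001 and 954 to 732 and 796, or -0.32 ± 0.060 SE on the log2 scale (adjusted p = 5.18e-05). In both genes every DETA/NO library lay below every untreated library.

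DNAJB9, a J-domain cochaperone of BiP and a well-known XBP1 target, had 1146, 1147 and 1260 untreated, and 1043 and 1328 in the shared library and replicate 3. SDF2L1, a partner of BiP cofactors, had 347, 315 and 317 untreated, and 268 and 353. In both genes, as in HSPA5, the shared library was the lowest of all 5 and DETA/NO replicate 3 the highest. The adjusted p of DNAJB9 was 0.964, but 0.0457 with a log2 fold change of 0.17 without the shared library and 0.0305 with -0.18 without replicate 3, in a range of 0.0305 to 0.989. That of SDF2L1 was 0.543, and 0.0473 without replicate 3 (range 0.0473 to 0.832). HYOU1, the ER Hsp110 exchange factor of BiP, had 6736, 7157 and 7017 untreated and 7013 and 6894 with DETA/NO (adjusted p = 0.953). SIL1, another exchange factor, DNAJB11 and DNAJC10, J-domain cofactors, and MANF, a BiP-binding neurotrophic factor, had log2 fold changes of -0.083 to -0.014 and adjusted p of 0.218 to 0.867.

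Genes of disulfide formation fell in 5 of the 7 tested, of which only P4HB and PDIA4 were called lower in every alternative. P4HB, the archetypal protein disulfide isomerase and a subunit of prolyl 4-hydroxylase, had 8280, 8459 and 8579 untreated and 7427 and 7662 with DETA/NO (log2 fold change -0.16 ± 0.031 SE, adjusted p = 7.81e-05). PDIA4 (ERp72) had 6667, 6706 and 6556 untreated and 5975 and 5937 with DETA/NO (log2 fold change -0.16, adjusted p = 0.000125). The DETA/NO values of both genes lay below all untreated values: the mean of P4HB fell by 10.6% and that of PDIA4 fell by 10.3%. PDIA6 (P5), an oxidoreductase that binds BiP, had 10890, 11266 and 10781 against 9974 and 10267 (log2 fold change -0.12, adjusted p = 0.00212). In limma without the trend and robust options PDIA6 did not pass (adjusted p = 0.105). PDIA3 (ERp57), the isomerase that works with calnexin and calreticulin, had 10940, 11016 and 10922 against 10196 and 10355 (log2 fold change -0.093, adjusted p = 0.0101). Without the shared library, PDIA3 had an adjusted p of 0.0923, in a range of 7.18e-05 to 0.119 over the alternatives.

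ERO1B, an oxidase that recharges the isomerases, had 309, 296 and 285 untreated and 260 and 228 with DETA/NO (log2 fold change -0.28 ± 0.095 SE, adjusted p = 0.0167). Its adjusted p was 0.0692 without untreated replicate 1 and 0.22 without DETA/NO replicate 3, in a range of 0.0101 to 0.22. Its paralog ERO1A, which hypoxia and ATF4 are known to raise, went the opposite way, from 1960, 1912 and 1897 to 2691 and 2637 (log2 fold change 0.47 ± 0.040 SE, adjusted p = 2.98e-11). ERP44, which retains the ERO1 oxidases in the early secretory pathway, had 3092, 3043 and 2969 untreated and 3190 and 3205 with DETA/NO, higher without overlap but not past the test (log2 fold change 0.076, adjusted p = 0.0974). PDIA5 had overlapping groups (adjusted p = 0.873).

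The 3 genes of the calnexin cycle, which folds and checks glycoproteins, did not pass. CALR and CANX, the lectin chaperones calreticulin and calnexin, were the most abundant members per kilobase of merged GENCODE exons, at 8827 and 8391 untreated normalized reads per kilobase, ahead of HSPA5 at 5112 and XBP1 at 3020. CALR had 23863, 24038 and 23970 untreated and 23239 and 22795 with DETA/NO, lower without overlap, by -0.058 on the log2 scale (adjusted p = 0.0853). It passed under TMM scaling (0.0356) and quantile normalization (0.0116), in a range of 0.0116 to 0.346. CANX had 52238, 53854 and 50862 against 51548 and 53217, with overlapping groups (adjusted p = 0.965). UGGT1, the glucosyltransferase that sends unfolded glycoproteins back into the cycle, had 5904, 5880 and 5604 against 5554 and 5535 (adjusted p = 0.125). Without untreated replicate 3 it passed, with an adjusted p of 0.0211 in a range of 0.0211 to 0.385.

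Of 8 tested degradation genes, 3 fell and 0 rose. EDEM3 and EDEM2, mannosidase-like proteins that mark misfolded glycoproteins for removal, fell, while their relative EDEM1 did not pass. EDEM3 had 4020, 4217 and 4121 untreated and 3424 and 3472 with DETA/NO, without overlap (log2 fold change -0.26 ± 0.035 SE, adjusted p = 4.32e-07). EDEM2 had 766, 846 and 734 against 700 and 601 (log2 fold change -0.27 ± 0.071 SE, adjusted p = 0.0031). Replicate 3 gave the lowest EDEM2 value, and without it the log2 fold change was -0.16 (adjusted p = 0.131, in a range of 8.68e-05 to 0.131). EDEM1 had 2491, 2530 and 2533 untreated, with DETA/NO values of 2414 and 2635 on either side (adjusted p = 0.97). DERL2, a derlin of the retrotranslocation machinery, had 1348, 1301 and 1324 against 1243 and 1193, and an adjusted p of 0.0455 that lay just under the threshold. It did not pass when any 1 of the 5 libraries was left out, with adjusted p of 0.132, 0.0661 and 0.0531 without untreated replicates 1, 2 and 3, 0.0557 without the shared library and 0.267 without DETA/NO replicate 3 (range over all alternatives 0.0317 to 0.267).

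HERPUD1, an ER membrane protein that gathers the degradation complex, was the most variable abundant member. It had 4394, 4587 and 5650 untreated, and 3438 and 4345 in the shared library and replicate 3. Its DETA/NO values lay below all untreated values, but replicate 3 only narrowly, and the mean difference of -20.2% did not pass (log2 fold change -0.33 ± 0.18 SE, adjusted p = 0.269). In edgeR's quasi-likelihood test on recovered reads it passed (adjusted p = 0.00201, in a range of 1.98e-17 to 0.674 over the alternatives). SYVN1, the HRD1 ubiquitin ligase, had 2200, 2232 and 2413 against 2123 and 2170 (adjusted p = 0.105). SEL1L, its adaptor, had 2682, 2654 and 2475 against 2362 and 2518 (adjusted p = 0.0747). SEL1L passed without untreated replicate 3 (adjusted p = 0.00568) and without DETA/NO replicate 3 (0.0312), in a range of 0.00568 to 0.53. DERL1 had 5.55 to 11.5 normalized reads untreated and 13.3 and 18.0 with DETA/NO (log2 fold change 0.74 ± 0.40 SE, adjusted p = 0.142). Per kilobase of merged exons it had 1.31 untreated normalized reads, beside 207 for DERL2. None of its exon bases lie under those of other genes on the same strand. Whether the counting gave this low level was not tested.

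All 3 import and export genes fell. SEC24D, which selects cargo for COPII vesicles and is a known target of XBP1, lies on chromosome 4 at 118722823 to 118838683. It had 1374, 1453 and 1420 normalized reads untreated and 714 and 788 with DETA/NO, the largest fold difference among the called members (log2 fold change -0.92 ± 0.055 SE, adjusted p = 4.87e-15). Its paralog SEC24B rose from 2018, 2064 and 2030 to 2280 and 2306, or 0.17 on the log2 scale (adjusted p = 0.000873). SEC61A1, the channel-forming subunit of the translocon, had 2121, 2200 and 2151 against 1860 and 1855 (log2 fold change -0.22 ± 0.041 SE, adjusted p = 7.2e-05). SEC61B, its small tail-anchored partner, had 2363, 2333 and 2426 against 2133 and 2262 (log2 fold change -0.11, adjusted p = 0.0272). SEC61B did not pass without untreated replicate 1 (0.0625), untreated replicate 3 (0.0555) or the shared library (0.319), in a range of adjusted p from 0.0104 to 0.319.

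The members were then set side by side by the arm of the response that is known to raise them. The assignment follows general knowledge, the arms overlap, and 13 members were left as common to both or not assigned. Of the 10 genes of the XBP1 arm (DNAJB9, DNAJC3, EDEM1, EDEM2, EDEM3, DERL1, DERL2, SEC61A1, SEC61B and SEC24D), 7 were lower and 0 higher, with a median log2 fold change of -0.15. DNAJB9 (adjusted p = 0.964), EDEM1 (0.97) and the low DERL1 (0.142) did not pass. Of the 7, only DNAJC3, EDEM3, SEC61A1 and SEC24D were called lower in every alternative analysis. Of 10 tested genes of the ATF6 arm (HSPA5, HSP90B1, HYOU1, PDIA4, SDF2L1, CRELD2, MANF, HERPUD1, SEL1L and CALR), 2 were lower and 1 higher, with a median of -0.07. Beside these counts, 21.7% of all genes tested were lower and 21.7% higher, so the count of the ATF6 arm called lower is near the share over all genes. The difference between the arms was not tested. Relative to the untreated mean, the median of the XBP1 arm was -0.17 in the shared DETA/NO library and -0.15 in replicate 3, and that of the ATF6 arm -0.12 and -0.055, while the untreated libraries lay between -0.020 and 0.031 in both. Without DETA/NO replicate 3, 5 genes of the ATF6 arm were lower, and limma without the trend and robust options called 4 of the XBP1 arm lower.

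Genes downstream of PERK and ATF4 were higher in 9 and lower in 1 of 13 tested, out of 16 listed, with a median log2 fold change of 0.25, beside 21.7% higher, 21.7% lower and a median of -0.00016 for all genes. This list was compiled with earlier results of these data known. STC2, a secreted glycoprotein raised by ER stress, had 1770, 1726 and 1798 normalized reads untreated and 4842 and 4137 with DETA/NO (log2 fold change 1.34 ± 0.052 SE, adjusted p = 5.48e-13). PPP1R15A, which encodes GADD34, the phosphatase subunit that undoes eIF2 alpha phosphorylation, had 3997, 4228 and 4465 against 5531 and 5913 (log2 fold change 0.44, adjusted p = 6.19e-09). Together with ERO1A they were the 3 rises with the smallest adjusted p. NUPR1, a stress-induced nuclear protein, was the gene that fell (log2 fold change -0.16, adjusted p = 0.00557), but without DETA/NO replicate 3 its adjusted p was 0.127, in a range of 0.00251 to 0.131. ATF4 itself, added after its values were seen, had 17037, 17363 and 17807 untreated and 17213 and 16759 with DETA/NO (adjusted p = 0.355). DDIT3, also added then, had 4.78 to 11.4 normalized reads and was not tested, and ASNS and PPP1R15B were listed at 0 in every library. Of the exon bases of ASNS, 44.6% lie under those of other genes on the same strand, against 0% for PPP1R15B. Whether the counting gave these zeros was not tested.

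**Figure D3:**
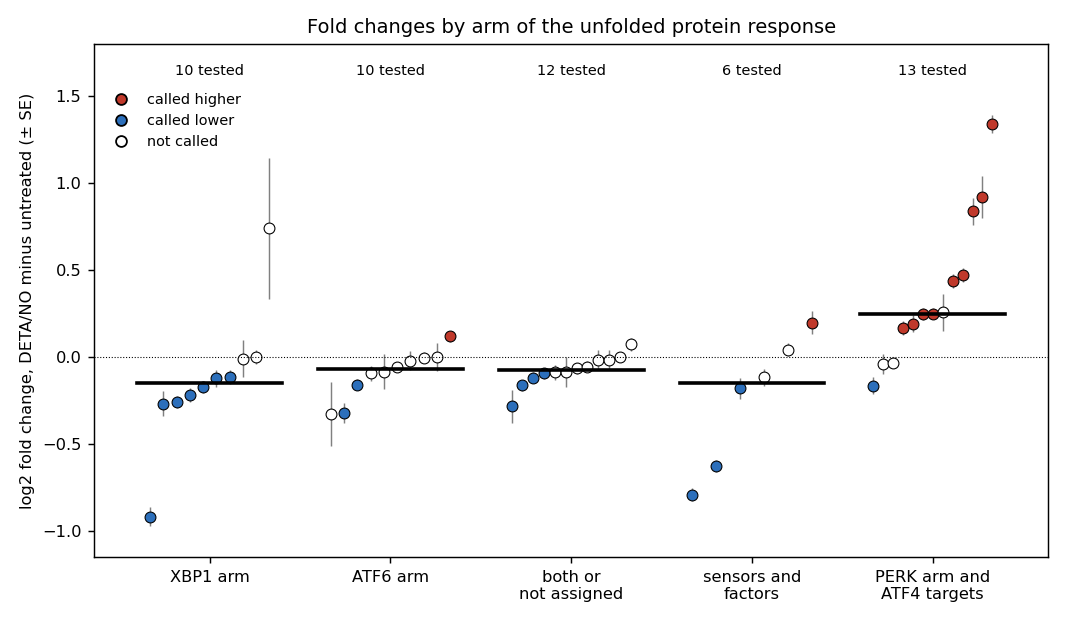
Points are genes, the y axis is the log2 fold change of DETA/NO minus untreated with its SE, and thick bars are medians; blue points were called lower, red higher and white neither. The medians run from -0.15 in the XBP1 arm and -0.07 in the ATF6 arm to 0.25 among PERK arm and ATF4 target genes, and the open point at 0.74 is DERL1, which has under 20 reads per library.

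The other eIF2 alpha kinases did not move alike. EIF2AK2, the double-stranded RNA kinase PKR and an interferon-stimulated gene, had 9921, 9899 and 9283 untreated and 19260 and 15742 with DETA/NO (log2 fold change 0.84 ± 0.11 SE, adjusted p = 0.00994). EIF2AK4, the amino acid sensor GCN2, rose by 0.18 on the log2 scale (adjusted p = 0.000904), but had an adjusted p of 0.0506 without the shared library, in a range of 0.000125 to 0.0506. EIF2AK1, the haem-regulated kinase HRI, moved by -0.074 on the log2 scale (adjusted p = 0.0491) and did not pass without untreated replicate 1 (0.0836) or 2 (0.174) or either DETA/NO library (0.0922 and 0.225), in a range of 0.0103 to 0.225. Among 7 tested partners of the sensors, 2 rose and 1 fell. RTCB, the ligase that joins the ends of XBP1 mRNA after IRE1 has cut it, rose by 0.16 (adjusted p = 0.00089). It did not pass in limma without the trend and robust options (adjusted p = 0.0566). NFE2L1, an ER-bound factor that raises proteasome genes, moved by 0.098 (adjusted p = 0.0292), with 0.126, 0.104 and 0.319 without untreated replicate 1, untreated replicate 2 and the shared library (range 0.00316 to 0.319). CREB3L1, the closest relative of CREB3L2, had 11.5 to 17.7 normalized reads untreated and 6.65 and 5.70 with DETA/NO (adjusted p = 0.0364). Its adjusted p was 0.057 without untreated replicate 3, 0.0728 without the shared library and 0.127 without DETA/NO replicate 3, in a range of 0.0246 to 0.183.

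Further genes of the compartment were taken from lists of the same pathways. Like the members, these lists were chosen with earlier results of these data known, so they are no independent background. Of 43 tested genes of import, glycosylation and export, 20 were lower and 4 higher (median log2 fold change -0.079). These are 46.5% and 9.3%, beside 21.7% lower and 21.7% higher among all genes tested. SPCS3, a signal peptidase subunit, fell by 0.27 on the log2 scale (adjusted p = 1.48e-07), STT3B, a catalytic subunit of oligosaccharyltransferase, by 0.21 and LMAN1, the cargo receptor ERGIC-53, by 0.23. In that list DDOST and RPN1, also of the oligosaccharyltransferase, rose by 0.11 and 0.083 (adjusted p = 0.0157 and 0.0223). Without DETA/NO replicate 3 their adjusted p were 0.269 and 0.119, without untreated replicate 1 0.0715 and 0.0894, without untreated replicate 2 that of DDOST was 0.0531, and without the shared library that of RPN1 was 0.0662. Their ranges over the alternatives were 0.00365 to 0.269 and 0.0178 to 0.197.

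Of 22 tested further folding enzymes, 7 were lower and 4 higher (median -0.023), or 31.8% and 18.2%, beside 21.7% each way among all genes tested. AGR2, an isomerase of secretory epithelia, had 901, 990 and 1047 untreated and 442 and 515 with DETA/NO (log2 fold change -1.03 ± 0.071 SE, adjusted p = 2.27e-12). TMX4, a membrane-bound thioredoxin-like protein, had 2707, 2833 and 2694 against 1627 and 1756 (log2 fold change -0.70), and its relative TMX3 a log2 fold change of -0.17. TMX3 did not pass in limma without the trend and robust options (adjusted p = 0.0595). PRKCSH and GANAB, the subunits of glucosidase II, rose by 0.23 and 0.10 (adjusted p = 1.13e-06 and 0.00322), GANAB by 0.028 without a call under quantile normalization (adjusted p = 0.393, the highest of a range from 0.00102), and also without a call in limma without the trend and robust options (0.0911).

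Of 20 tested further degradation genes, 5 were higher and 4 lower (median 0.014). These are 25% and 20%, near the 21.7% each way among all genes tested. AUP1, which recruits a ubiquitin-conjugating enzyme, had a log2 fold change of 0.25, and the ubiquitin-conjugating enzyme UBE2J2 one of 0.20. UBE2J2 did not pass in limma without the trend and robust options (adjusted p = 0.0617). UBXN4, which recruits the ATPase VCP to the ER membrane, fell by 0.30, UBE2J1, the conjugating enzyme of the SYVN1 complex, by 0.25 and the mannosidase MAN1B1 by 0.24. Of 6 listed receptors of ER autophagy, 3 of 5 tested fell, beside 21.7% lower among all genes. RTN3, CALCOCO1 and ATL3 had log2 fold changes of -0.24, -0.35 and -0.18, and RETREG1 and TEX264 did not pass (adjusted p = 0.43 and 0.398). CCPG1 was listed at 0 in every library, and 38.9% of its exon bases lie under those of other genes on the same strand. Of 6 mRNAs known as substrates of IRE1 cleavage, only 2 were tested, too few to set beside the 21.7% lower among all genes. Both fell: SCARA3 by 0.56 on the log2 scale (adjusted p = 2.23e-11) and HGSNAT by 0.25 (adjusted p = 9.81e-05). SPARC, COL6A1 and PDGFRB had means under 10. BLOC1S1, a classic substrate, was listed at 0 throughout, and 29.8% of its exon bases lie under those of other genes.

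The DETA/NO libraries differed from each other in some members. DETA/NO replicate 3 lay above the shared library in 25 of 38 members, with a median log2 difference of 0.038, beside 0.0022 for all genes tested. The gap was widest, among members with over 100 normalized reads, in SDF2L1 (0.40), DNAJB9 (0.35) and HERPUD1 (0.34), followed by EDEM2 (-0.22) and HSPA5 (0.21). In XBP1, EIF2AK3 and SEC61A1 the libraries differed by less than 0.01. What set the libraries apart was not tested, and with 2 libraries the spread within DETA/NO is poorly known.

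**Figure D4:**
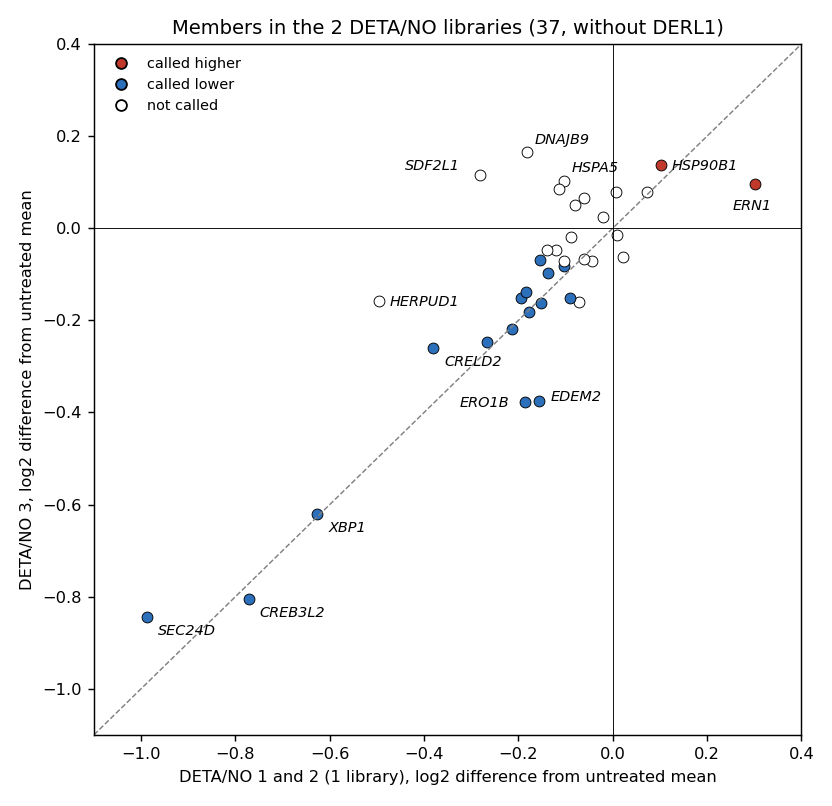
Each point is 1 of 37 tested genes (DERL1, at under 20 reads, is left out), with its log2 difference from the untreated mean in the shared DETA/NO library (x axis) and in DETA/NO replicate 3 (y axis); the dashed line marks equal values. SEC24D, CREB3L2 and XBP1 lie near the line at the lower left, while SDF2L1, DNAJB9, HSPA5 and HERPUD1 lie above it.

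Some members share exon bases with other genes on either strand, and whether reads were counted by strand is not given in the sources used here. The share was 25.2% for PDIA6, 23.2% for DNAJB11, 18.9% for PDIA3, 15.1% for EIF2AK3 and 14.3% for PDIA5, and reads of those stretches are uncertain. PDIA3 and HSP90B1 also have processed pseudogenes that could share reads with them.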

How the data were processed

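RNA of 6 samples was measured. The authors deposited 1 normalized read count per gene and sample, a signal made by dividing gene counts by 1 size factor per library. Per the submitters' processing notes, TopHat2 2.1.1, Bowtie2 2.5.0.0, Subread, featureCounts 2.0.3, DESeq2 1.38.3 and GRCh38 were used; annotation and counting settings are not given in the sources used here. Of values above 0, in every library 100% were whole reads times 1 factor (tolerance 0.01). Groups came from the titles. Identical DETA/NO files were counted once. In each file 27 row names had become dates (0.246% of reads) and stayed in the tests.

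Genes with a mean of at least 10 were tested with limma 3.58.1 (R 4.3.3, trend and robust eBayes) on log2(value + 1), which understates changes of low genes, with Benjamini-Hochberg adjustment. Alternatives were pseudocounts of 0.5 and 5, no filter or a mean of 50, TMM, upper quartile and quantile scaling, no trend and robust options, edgeR 4.0.16 and DESeq2 1.42.0 on recovered reads, each library left out and a replicate block. Leaving out a DETA/NO library leaves 1, assumed to vary like the others. In simulated counts of DETA/NO against untreated (16409 genes, 50 changed per size), limma found 90% of 1.5-fold and 100% of 2-fold changes, and 15 of its 210 calls were false. Changes under 1.5-fold, the size of most calls among the members, were not simulated. Far fewer genes changed in the simulation than the 43.4% called in the data, so it does not give the power or false calls for small changes. Members and lists were chosen with earlier results of these data known. Named were all members and, of each other list, at most 3 called genes per direction, by smallest adjusted p, and all genes of lists of up to 8. Some genes that this rule names are not reported here. Positions, lengths and overlaps are from GENCODE 29 (GRCh38). Promoters are from RefSeq (GRCh38.p14), with entries for 36 of 40 members. Python 3.11.15 and pandas 2.3.3 did the other steps.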

Additional observations from a re-analysis of the deposited data

How the results depend on the processing

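Among 73 named genes, the call stayed the same in 1137 of 1238 pairs of gene and alternative, was lost in 82 and gained in 17. HSPA5 and DNAJB9 changed sign with a call without the shared DETA/NO library, to 0.10 and 0.17 on the log2 scale. Limma without the trend and robust options called 9 members lower and 0 higher (16 and 2 with them) and 4 of the XBP1 arm lower (7 with them). DESeq2 called 1 member higher. Quantile normalization called 4 of the ATF6 arm lower, against 2. With each library left out in turn, 13 to 16 members were lower and 1 to 3 higher, 5 to 6 of the XBP1 arm lower, 2 to 5 of the ATF6 arm lower, 8 to 10 of the PERK arm higher and 5579 to 7077 genes called in all. The replicate block, with the shared library as number 1 or 2, called 17 or 14 members lower and 2 higher, and 6605 or 6321 genes in all, against 7120. Deviations of same-numbered libraries from their group means correlated at 0.0293, 0.0011 and 0.0301 over all genes tested. With 2 DETA/NO libraries these deviations mirror each other (correlation -1), so the values cannot decide whether same-numbered samples were paired. HERPUD1 passed under both blocks (adjusted p = 1.98e-17 and 2.4e-09). Where a count moved because a library was left out, fewer libraries entered the fit; in the other cases the cause was not tested. The median of all genes moved by less than 0.01 under any alternative. With 2 DETA/NO libraries, small changes such as those of DERL2 and SEC61B rest on few values.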
